A study of Bos taurus with 40 samples.

Results

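The collagen chains described here are COL4A4, COL6A6, COL19A1, COL21A1, COL22A1, COL24A1, COL25A1 and COL28A1. They were chosen by name, with earlier results of these data known, as 8 of 59051 rows of 4 count tables. They are 8 of 13 collagen rows found there, of which COL6A6 was matched by its RefSeq gene ID and the others carry a symbol. Bovine (Bos taurus) granulosa cells were taken from single follicles, and the enclosed oocytes were matured in vitro, after which an ooplasm biopsy and cumulus cells were collected. Each of these 3 sample types was labelled by the fate of the oocyte, with 4 libraries for oocytes that reached the blastocyst stage and 4 for oocytes that arrested at cleavage. A further 4 biopsies were matched by number to 4 whole oocytes, with no fate in the labels. Granulosa and biopsy libraries carry the label of their oocyte (B20, B21, D24 and D27 for blastocyst; B14, B23, D10 and D29 for cleavage). Cumulus libraries carry no such label. The sources used here do not state breed, animal or age, nor that the oocytes came from separate animals. The p-values therefore measure only the spread between these libraries, which may be partly technical.

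Collagens are secreted or membrane-bound proteins of 3 chains wound into a triple helix. Type IV collagen forms the network of basement membranes, the sheets on which epithelia rest, and in the follicle such a sheet separates the granulosa cells from the theca. COL4A4 encodes the alpha-4 chain of that network, which assembles with the alpha-3 and alpha-5 chains. The other members are less abundant or more restricted chains. COL19A1, COL21A1 and COL22A1 belong to the FACIT group, which attaches to fibrils or to basement membrane zones. COL24A1 is a fibril-forming chain, COL6A6 a chain of the beaded filaments of type VI collagen, COL25A1 a transmembrane collagen and COL28A1 a collagen with von Willebrand factor A domains.

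Levels are given as CPM, a library's counts of a row per 1000000 counts, with the library total scaled by the TMM method of edgeR within each count table. The tables were scaled separately, so the order of levels across sample types is a description. Gene lengths were not used, and levels are compared between samples and not between chains. Library totals, in units of 1000000 counts, were 9.88 to 17.7 in granulosa cells, 7.96 to 9.59 in cumulus cells, 16.8 to 22.6 in biopsies and 13.4 to 23.8 in the matched set. H1FOO, the oocyte linker histone, was the only 1 of 17 oocyte markers with a row under its symbol, at 453 to 1524 CPM in the biopsies and oocytes, 0.302 to 21.9 in granulosa cells and 0 to 0.107 in cumulus cells. The lists of granulosa (12 genes), cumulus (8), theca and stroma (12), endothelial (5), leukocyte (5) and erythrocyte (4) markers had no row under a symbol, so those labels were not checked by markers here. Granulosa libraries B20 and D27 stood apart: they had the smallest totals of that table (9.88 and 10.8 in the same units) and the most rows with 5 or more counts (28629 and 28473). The fate contrasts and interactions of the members are given with and without them.

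Granulosa cells of the blastocyst group had higher counts of 6 minor chains (COL6A6, COL19A1, COL22A1, COL24A1, COL25A1 and COL28A1) than those of the cleavage group, while the basement membrane chain COL4A4 and the FACIT chain COL21A1 had lower means that did not pass the test. By edgeR's quasi-likelihood test with Benjamini-Hochberg adjustment over 22934 rows, 6 of 8 members were called higher and 0 lower. Among all rows tested, 21.3% were called higher and 0.349% lower. Of all 13 collagen rows, 6 were called higher and 0 lower, with a median log2 difference of 2.71. The members were chosen with earlier results of these data known, so their share of calls is a description. The share of all rows whose groups did not overlap was not counted, here or in biopsies. The median log2 difference was 3.74 over the 8 members and 0.10 over all rows (0.48 over all rows under DESeq2 size factors and 0.70 under library totals). Over the 35243 rows left without the filter on low counts, the median was 1.22 by edgeR and 1.67 by DESeq2. In bulk samples, fewer cells of a type and less RNA per cell cannot be told apart.

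COL4A4 stood at 86.4 CPM in B20, 694 in B21, 343 in D24 and 325 in D27 of the blastocyst group. It stood at 700 in B14, 885 in B23, 1075 in D10 and 1087 in D29 of the cleavage group. The highest blastocyst library lay just under the lowest cleavage library, and B20 was far below every other library. With library totals as the only scaling the groups overlapped, since B21 stood at 723 CPM and B14 at 603. The difference was -1.36 on the log2 scale (SE 0.63, edgeR adjusted p = 0.139, n = 4 per group), and -0.89 with library totals.

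COL21A1, like COL4A4, had the lower mean in the blastocyst group, with a smaller gap. Its CPM was 123, 299, 270 and 160 in B20, B21, D24 and D27, against 304, 571, 449 and 294 in B14, B23, D10 and D29. The groups overlapped, with B21 of the blastocyst group above D29 of the cleavage group. The log2 difference was -0.92 (SE 0.48, edgeR adjusted p = 0.182).

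**Figure D1:**
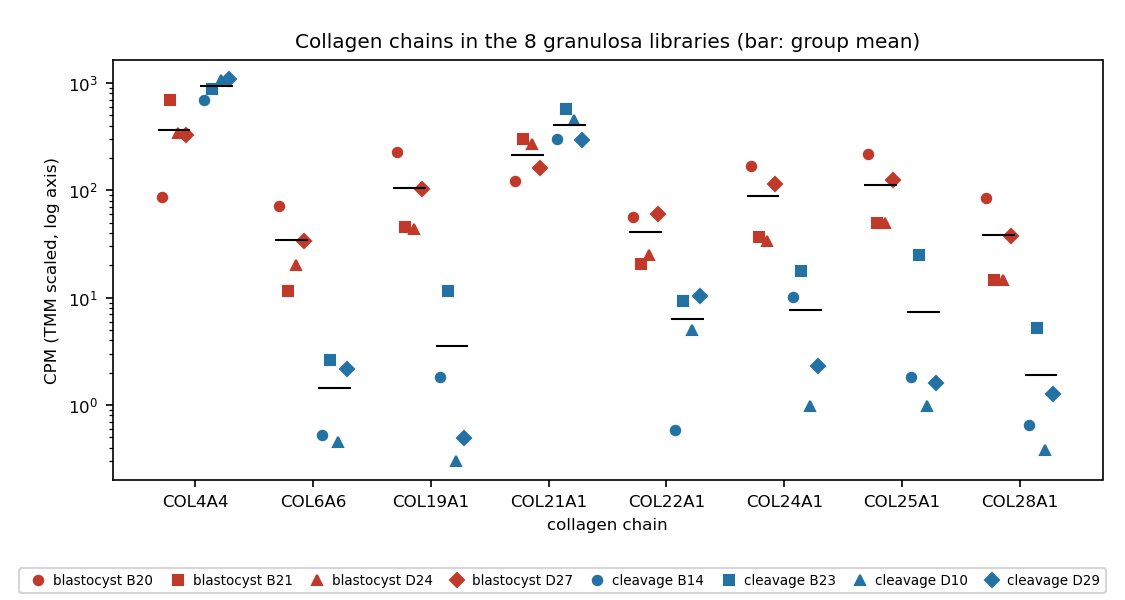
CPM of each collagen chain (log axis) in the 4 blastocyst (red) and 4 cleavage (blue) granulosa libraries, with marker shapes for libraries and black bars for group means. For the 6 minor chains other than COL21A1 every blastocyst library lies above every cleavage library, whereas COL4A4 has means of 362 and 937 CPM in the other order. The share of all rows that separate in this way was not counted.

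COL19A1 had the largest called log2 difference of the 8. It stood at 227, 45.9, 44 and 102 CPM in B20, B21, D24 and D27, and at 1.84, 11.6, 0.302 and 0.491 in B14, B23, D10 and D29. The groups did not overlap, and B23 lay closest to the blastocyst libraries (log2 4.90, SE 1.15, edgeR adjusted p = 0.016). COL22A1, the other FACIT chain that rose, stood at 56.9, 20.6, 25 and 60.6 CPM against 0.591, 9.37, 4.98 and 10.3, again without overlap (log2 2.71, SE 0.76, edgeR adjusted p = 0.03). Its smallest gap was between D29 at 10.3 and B21 at 20.6.

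COL6A6, the beaded filament chain, was counted 1106, 191, 334 and 497 times in B20, B21, D24 and D27 and 8, 29, 6 and 31 times in B14, B23, D10 and D29. The mean level was 34.3 ± 26.5 against 1.45 ± 1.12 CPM (SD, n = 4), with no overlap (log2 4.58, SE 0.83, edgeR adjusted p = 0.0116). COL28A1 was counted 1313, 241, 241 and 556 times against 10, 58, 5 and 18 times. Its mean was 38 ± 33.2 against 1.89 ± 2.28 CPM (log2 4.36, SE 0.96, edgeR adjusted p = 0.0134). In both chains B20 was the highest library and D10 the lowest.

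COL24A1, the fibril-forming chain, stood at 170, 37.1, 33.5 and 115 CPM in B20, B21, D24 and D27 against 10.1, 17.6, 0.982 and 2.32 in B14, B23, D10 and D29. The log2 difference was 3.54 (SE 0.91, edgeR adjusted p = 0.0218). COL25A1, the transmembrane chain, stood at 220, 49.2, 49.8 and 125 CPM against 1.84, 25, 0.982 and 1.61 (log2 3.94, SE 1.09, edgeR adjusted p = 0.0281). Neither chain overlapped between the groups, but B23 of the cleavage group reached 25 CPM of COL25A1, against at most 1.84 in the other 3 cleavage libraries.

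The calls depended on B20 and D27. Without D27 the edgeR test called 3 of 8 members, with COL22A1, COL24A1 and COL25A1 at adjusted p of 0.0887, 0.0536 and 0.0592. Without B20, B14, D10 or D29 it called 5: COL22A1 was lost without B20 (0.0518) or D10 (0.0694), and COL25A1 without B14 (0.0537) or D29 (0.0542). Calls over all rows were 4964 of 22934 in the main fit and 2482 of 23129 without D27. They were 3162 of 23228 without B20, 4527 of 24995 without B14, 4144 of 25036 without D10 and 4352 of 25019 without D29. Without both B20 and D27 it called 0. With only B21 and D24 left in the blastocyst group, log2 differences of the 6 chains stayed positive, between 1.94 for COL22A1 and 3.83 for COL19A1, at edgeR adjusted p of 0.143 to 0.242. In that comparison 0 of 23577 rows were called, so the loss of a call there does not measure the size of a difference. COL6A6, COL19A1 and COL28A1 kept their call whichever single library was left out.

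Other values moved with the minor chains across the granulosa libraries. Chemosensory receptor rows (odorant, taste and vomeronasal receptors) with at least 1 count made up 79% of 1024 such rows in B20, 59.2% in D27, 38.8% in D24 and 33.7% in B21. In the cleavage group they made up 13.3% in B23, 3.32% in D29, 3.22% in B14 and 2.44% in D10. The summed level of the 6 minor chains followed the same order of libraries: 830, 475, 187 and 179 CPM, then 71.6, 18.1, 15.6 and 8.08 CPM. Rows with 5 or more counts numbered 26373 to 28629 in the blastocyst group and 18065 to 22039 in the cleavage group (exact two-sided permutation p = 0.0286, the smallest that 4 against 4 allows). H1FOO stood at 5.78 to 21.9 CPM in the blastocyst group and 0.302 to 6.73 in the cleavage group. The part of these quantities in the collagen differences was not tested.

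**Figure D2:**
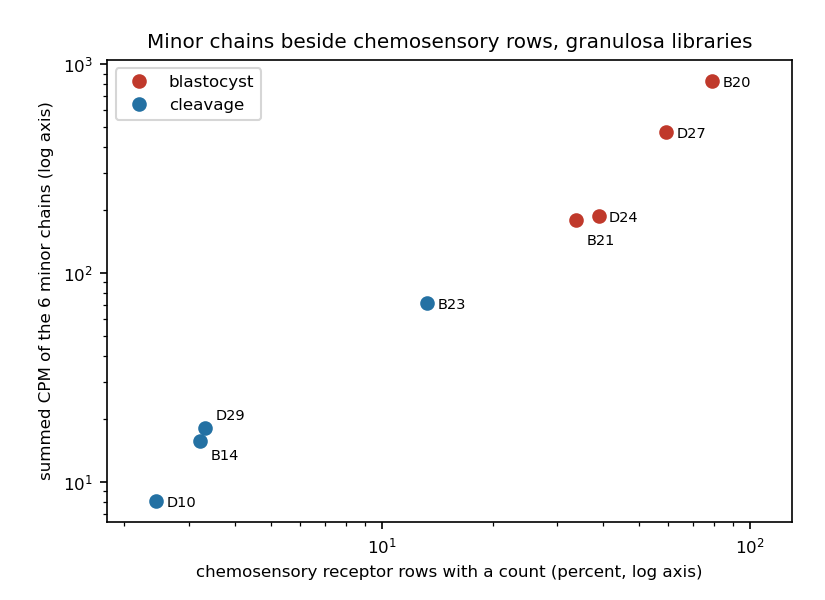
Summed CPM of the 6 minor chains against the percent of chemosensory receptor rows with a count, both on log axes, with 1 point per granulosa library (red blastocyst, blue cleavage). The 8 libraries take the same order on both axes, from D10 (2.44%, 8.08 CPM) to B20 (79%, 830 CPM).

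The division of counts among the 6 minor chains was read in each granulosa library. In the 4 blastocyst granulosa libraries, COL25A1 gave 26.3 to 27.5% of the counts of the 6 chains, COL19A1 21.6 to 27.3% and COL24A1 17.9 to 24.3%. The counts themselves ran from 2968 in B21 to 12806 in B20. COL22A1 gave 6.85% in B20 (exact 95% binomial interval 6.42 to 7.3) and 11.5 to 13.3% in the other 3, and COL6A6 gave 6.44 to 10.8%. Among the cleavage libraries, D10 and D29 were led by the same chain, and B14 and B23 each by another. COL24A1 gave 65% of 237 counts in B14 (58.5 to 71), and COL22A1 gave 61.7% of 107 in D10 (51.8 to 70.9) and 56.6% of 258 in D29 (50.3 to 62.7). B23, with 787 counts, was led by COL25A1 at 34.9% (31.6 to 38.4). Intervals cover counting error only.

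**Figure D3:**
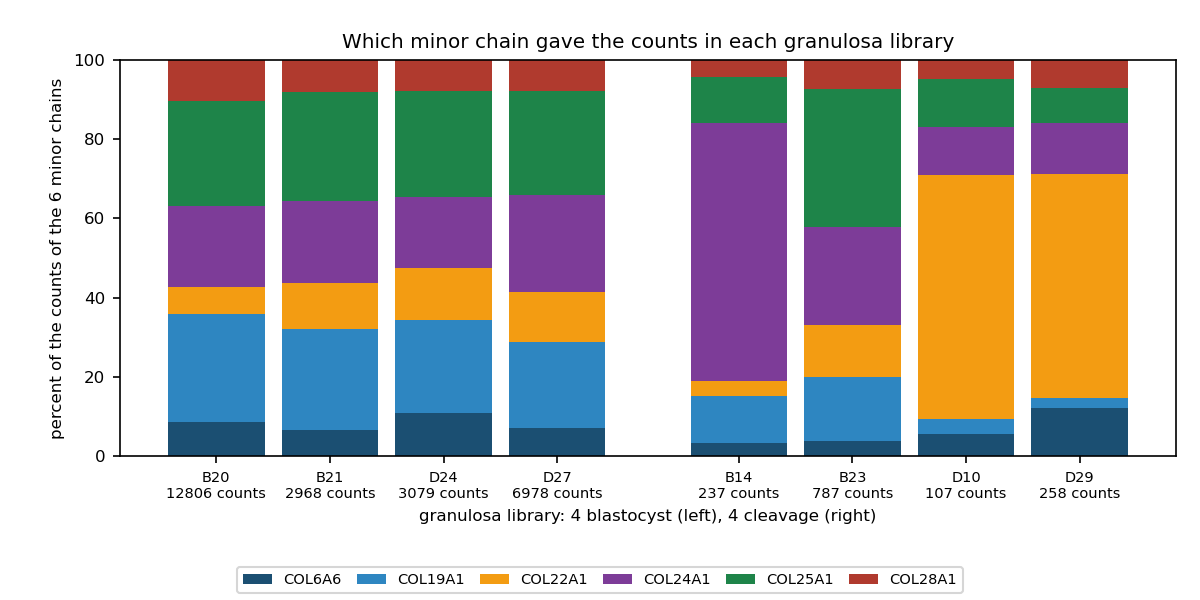
Percent of the counts of 6 minor chains that came from each chain, stacked, in the 8 granulosa libraries, with the number of counts under each. The 4 blastocyst libraries on the left have 26.3 to 27.5% COL25A1, and on the right COL24A1 gives most of B14 and COL22A1 most of D10 and D29.

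Of the 5 collagen rows outside the members (COL7A1, COL9A1, COL9A2, COL9A3 and COL16A1), 0 were called in granulosa cells by edgeR in either direction, and 1 had an unadjusted p under 0.05. This was COL9A1, a FACIT chain whose gene neighbours COL19A1 in RefSeq, with a log2 difference of 4.58 (edgeR adjusted p = 0.0648). Among basement membrane partners, 3 of 25 listed genes had a row and 2 rose, where 21.3% of all rows did. LAMA2, a laminin chain, stood at 158 ± 110 against 8.01 ± 8.21 CPM (log2 4.32, edgeR adjusted p = 0.0116). FREM3, an extracellular matrix protein, stood at 20.3 ± 19.1 against 0.706 ± 1.23 CPM (log2 4.89, edgeR adjusted p = 0.023). FREM3 was far higher in biopsies and oocytes, with group means of 123 to 340 CPM (granulosa against biopsy log2 -5.85, edgeR adjusted p = 3.61e-07). LAMA5, another laminin chain, had a log2 difference of 1.28 by fate in granulosa cells (edgeR adjusted p = 0.101). Of 10 collagen receptors only GP6, the platelet collagen receptor, had a row, and it rose (log2 4.71, edgeR adjusted p = 0.0411). Of 11 collagenases and inhibitors only TIMP1 had a row, with a log2 difference of -3.53 (edgeR adjusted p = 0.062), and of 36 genes of collagen making and crosslinking 0 had a row. Without granulosa B20 and D27 none of these genes was called, as 0 of 23577 rows were.

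In ooplasm biopsies the members did not separate by fate in the adjusted test. The edgeR test called 0 of 8 members and 0% of 21174 rows, and 4.8% of rows had an unadjusted p under 0.05, as did 2 members. DESeq2 also called 0 of 8 members, and 182 rows. COL24A1 was the member of smallest p. It stood at 48, 46.6, 60.7 and 51.2 CPM in B20, B21, D24 and D27, against 148, 69, 94.3 and 91.1 in B14, B23, D10 and D29. The groups did not overlap, and the blastocyst group was the lower (log2 -0.96, SE 0.28, edgeR unadjusted p = 0.0047 and adjusted p = 0.913). COL21A1 stood at 21.8 to 50.7 CPM against 9.72 to 26.4, with overlap (log2 1.02, SE 0.41, edgeR adjusted p = 0.99). COL4A4 stood at 0.548 to 5.87 CPM against 2.3 to 8.67 (log2 -0.77, SE 0.79). COL19A1 stood at 13, 6.5, 7.67 and 1.3 CPM in the blastocyst group and 5.56, 3.65, 1.08 and 1.41 in the cleavage group (log2 1.28, SE 0.82). The groups overlapped through D27. The log2 differences of COL22A1, COL25A1 and COL28A1 were -0.31, -0.19 and 0.40, within groups that ranged up to 33.4, 8.36 and 19.3 CPM. COL6A6 was highest in cleavage biopsy B14 at 13.6 CPM, against 1.2 to 2.98 in the other 3 and 3.29 to 8.18 in the blastocyst group (log2 0.12, SE 0.85).

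In cumulus cells, which surround the oocyte, edgeR also called 0 members, of the 5 that had enough counts to be tested. It called 0% of 15410 rows, with 14.6% at an unadjusted p under 0.05, among them 1 member, COL25A1. DESeq2 called 0 members and 159 rows. COL4A4 stood at 177 to 212 CPM in the blastocyst group and 184 to 214 in the cleavage group (log2 -0.04, SE 0.07, 95% interval -0.20 to 0.12), and COL21A1 at 180 to 256 against 159 to 239. COL25A1 stood at 28.3, 18.5, 18.4 and 17.5 CPM in the blastocyst group and 24.2, 24.8, 29.1 and 37.9 in the cleavage group. The groups overlapped through 1 blastocyst library (log2 -0.48, SE 0.19, edgeR adjusted p = 0.292). COL22A1 stood at 1.04 to 5.21 against 2.01 to 3.02 CPM (log2 -0.16, SE 0.43) and COL24A1 at 2.66 to 4.69 against 1.98 to 4.18 CPM (log2 0.23, SE 0.26), both with overlap. COL6A6, COL19A1 and COL28A1 were not tested: they had 6, 17 and 2 counts in all 8 cumulus libraries.

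Whether the fate contrast had the same size in granulosa cells as in biopsies was tested directly, as an interaction. By edgeR it was called for 5 of 8 members, against 6.35% of 28229 rows higher and 0.549% lower. COL24A1 had an interaction of 4.39 on the log2 scale (SE 0.94, edgeR adjusted p = 0.0155), since it was higher in blastocyst granulosa cells and had the lower mean in blastocyst biopsies. COL6A6 (4.30), COL25A1 (4.08) and COL28A1 (3.84) were called in the same direction, and COL21A1 (-2.10) in the other (edgeR adjusted p = 0.0387, 0.0391, 0.0431 and 0.034). COL21A1 lost the call under library totals (-1.43, edgeR adjusted p = 0.0645) and in 10 of 16 fits that left out 1 library. The interactions of COL19A1 (3.56), COL22A1 (2.84) and COL4A4 (-0.82) missed the threshold (edgeR adjusted p = 0.0916, 0.11 and 0.589). The number called fell to 1 without granulosa B20, D27, B14 or D29, to 2 without granulosa D10 or biopsy B21 or B23, and to 3 without biopsy D24 or B14. Calls over all rows went from 1948 of 28229 to 443, 566, 697 and 636 without granulosa B20, D27, B14 and D29. They were 1354 without granulosa D10, 1504 and 1343 without biopsy B21 and B23, and 1736 and 2170 without biopsy D24 and B14. These fits tested 29123 to 30274 rows. COL24A1 kept its call without any single library and lost it without granulosa B20 and D27 (edgeR adjusted p = 0.143). That fit called 0 members and 45 of 30288 rows. With the oocyte label as a replicate block, COL6A6 (edgeR adjusted p = 0.109) and COL28A1 (0.0543) lost the call and COL19A1 gained it (0.0297).

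Against cumulus cells the interaction was called for 4 of 8 members, with 9.91% of 21929 rows called higher and 0.319% lower. These were COL6A6 (log2 6.93), COL22A1 (3.25), COL24A1 (3.76) and COL25A1 (4.95), with edgeR adjusted p of 0.0226, 0.0441, 0.0322 and 0.0158. The fitted value of COL6A6 rests on 6 cumulus counts and depends on the prior count. COL6A6 passed the low count filter through the blastocyst granulosa libraries, where it is high, so its call is a description. COL19A1 (5.52), COL28A1 (4.80), COL4A4 (-1.15) and COL21A1 (-0.75) missed the threshold (edgeR adjusted p = 0.0665, 0.335, 0.164 and 0.187). Without granulosa B20 and D27 edgeR called 0 members and 393 of 22150 rows. Without cumulus library 9 of the blastocyst group it called 0 members and 685 of 23912 rows, against 2244 rows in the main fit. It called 1 member without cumulus library 7, 8 or 11, beside 945 to 1111 rows. It called 2 without cumulus library 5, 6, 10 or 12 or granulosa B20 or D27, beside 973 to 1836 rows. These fits that left out 1 library tested 22061 to 23918 rows. Granulosa cells enter both interactions, so the pair are not independent.

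Over both fates, COL4A4 separated the somatic cells from the oocyte. Its mean was 937 ± 183 CPM in cleavage granulosa cells and 362 ± 250 in blastocyst granulosa cells. It was 199 ± 12.8 and 193 ± 15.9 CPM in cleavage and blastocyst cumulus cells. The biopsies and oocytes held 6.13 ± 2.72, 5.32 ± 3.36, 3.6 ± 2.45 and 2.1 ± 0.562 CPM in cleavage biopsies, matched biopsies, blastocyst biopsies and whole oocytes. Every somatic library lay above every biopsy and oocyte library, the lowest cumulus library at 177 and blastocyst granulosa B20 at 86.4 CPM, while the last 4 groups overlapped each other. The share of all rows that separate in this way was not counted for these sample types. By edgeR the COL4A4 level of granulosa cells exceeded that of biopsies by 6.40 (log2, SE 0.52, adjusted p = 4.24e-09) and that of cumulus cells by 1.44 (SE 0.27, adjusted p = 0.00017). In the blastocyst libraries alone the excess over cumulus cells was 0.69 (edgeR adjusted p = 0.284).

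**Figure D4:**
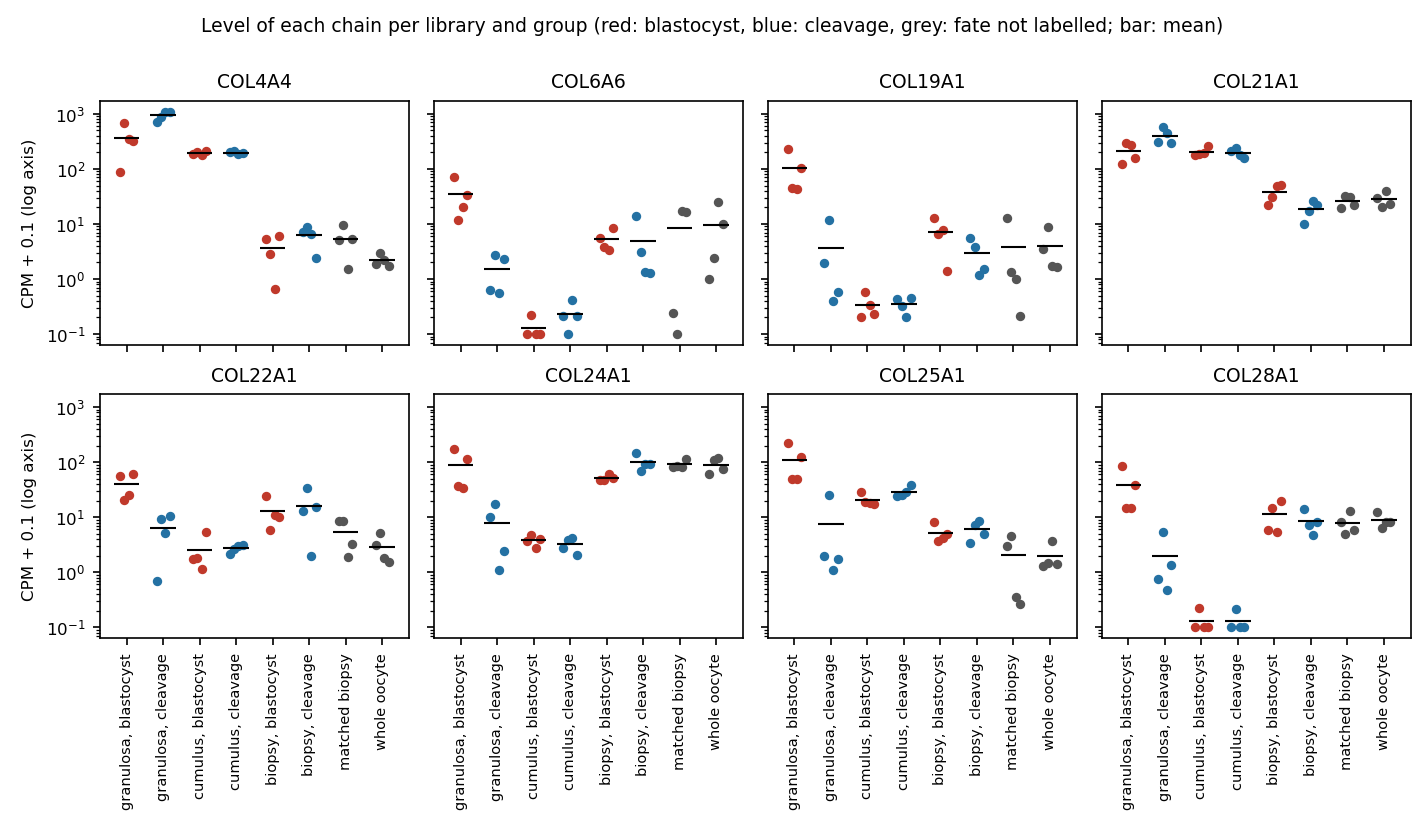
CPM + 0.1 (log axis) of each chain in the 4 libraries of each of 8 groups, with bars for means; red is blastocyst, blue cleavage and grey not labelled by fate. COL4A4 and COL21A1 are high in granulosa and cumulus cells, COL24A1 in biopsies, oocytes and blastocyst granulosa cells, and COL6A6 and COL28A1 are near 0 in cumulus cells.

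COL21A1 took the same order of sample types: 404 ± 131 and 213 ± 84.6 CPM in cleavage and blastocyst granulosa cells, 205 ± 34.2 and 198 ± 35.4 in blastocyst and cleavage cumulus cells, and 18.8 to 38.1 as group means in biopsies and oocytes. Its level in granulosa cells exceeded that in biopsies (log2 2.88, SE 0.30, edgeR adjusted p = 1.19e-07) and did not pass against cumulus cells (0.41, edgeR adjusted p = 0.0539, and 0.0152 with library totals). COL24A1 ran the other way against biopsies (log2 -2.03, SE 0.47, edgeR adjusted p = 0.000989). Its group means were 51.6 to 100 CPM in biopsies and oocytes, 88.9 in blastocyst granulosa cells and 7.76 in cleavage granulosa cells. In cleavage libraries alone the contrast was -4.25 (edgeR adjusted p = 0.000926) and in blastocyst libraries alone -0.34 (edgeR adjusted p = 0.607), and the interaction given above is the test of that difference.

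In all, granulosa cells against biopsies gave 3 members higher and 1 lower by edgeR, with 27.3% of rows higher and 30.9% lower. COL25A1 was the third member called higher (log2 1.77, SE 0.56, edgeR adjusted p = 0.0109), and with the oocyte label as a replicate block it was 1.07 (edgeR adjusted p = 0.0719). It was 3.31 in blastocyst libraries alone (edgeR adjusted p = 0.000368) and -0.27 in cleavage libraries alone (edgeR adjusted p = 0.831). Of the 8 same-oocyte pairs, COL4A4 and COL21A1 were higher in the granulosa library in 8, COL24A1 in 2 and COL25A1 in 5. The 5 were the blastocyst pairs and B23. The share of all rows with all 8 pairs in the same direction was not counted. COL19A1 missed the threshold (log2 1.5, edgeR adjusted p = 0.0512) and was called in blastocyst libraries alone (2.78, edgeR adjusted p = 0.00512). COL6A6 (log2 -0.05), COL22A1 (-0.36) and COL28A1 (-0.80) were not called over both fates. COL6A6 was 1.60 in blastocyst libraries alone (edgeR adjusted p = 0.0463), and COL28A1 was -2.76 in cleavage libraries alone (edgeR adjusted p = 0.0206).

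Granulosa cells against cumulus cells gave 6 members higher and 0 lower, with 46.5% of rows higher and 26.3% lower. COL6A6, COL19A1 and COL28A1 passed the low count filter only through the blastocyst granulosa libraries, and were not tested in the cleavage libraries alone. The direction of their calls was thus fixed by that filter, and those calls are a description. COL28A1 was counted 2442 times in granulosa cells and 2 times in cumulus cells, a ratio of 722 per library total (exact 95% interval 200 to 5964), and 6 of 8 cumulus libraries were at 0. COL6A6 was counted 2202 against 6 times (217, 99.5 to 592) and COL19A1 6658 against 17 times (232, 145 to 398). These intervals cover counting error only, while the libraries differed far more: COL19A1 counts ran from 4 to 3502 among granulosa libraries. B20 alone held 1313, 1106 and 3502 of the granulosa counts of COL28A1, COL6A6 and COL19A1. Without B20 the ratios were 364, 118 and 120, and without B20 and D27 they were 205, 71.5 and 69.6. In the cleavage libraries alone these ratios were 50.1 (8.77 to 2000), 8.14 (3.34 to 25.8) and 10.2 (5.25 to 22.7), from 91, 74 and 167 granulosa counts. COL22A1 (log2 2.63) and COL24A1 (2.90) were called over both fates (edgeR adjusted p = 0.000206 and 0.000155) and not in cleavage libraries alone (1.08 and 1.11, edgeR adjusted p = 0.189 and 0.225). COL25A1 differed in sign: 2.26 in blastocyst libraries (edgeR adjusted p = 0.00356) and -2.23 in cleavage libraries (edgeR adjusted p = 0.0503), with 0.14 over both (0.827).

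The share of COL4A4 in the counts of the 8 chains was lower in every biopsy and oocyte library than in every somatic library, while granulosa and cumulus shares overlapped. COL4A4 gave 58 to 77.7% of their counts in cleavage granulosa cells, 8.3 to 59.2% in blastocyst granulosa cells, 42.9 to 48.8% in cumulus cells and 0.387 to 6.58% in biopsies and oocytes. Among the 6 minor chains, COL25A1 gave 65.4 to 87.4% in cumulus libraries and COL24A1 45.8 to 84.5% in biopsies and oocytes. B20 was the granulosa library with the smallest COL4A4 share, 8.3% (exact 95% interval 7.88 to 8.74). The 6 minor chains gave 79.8% in granulosa B20 and 79.5% in biopsy B20, so the somatic and ooplasm ranges of that share overlapped. These are shares of counts, not weighted for length.

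**Figure D5:**
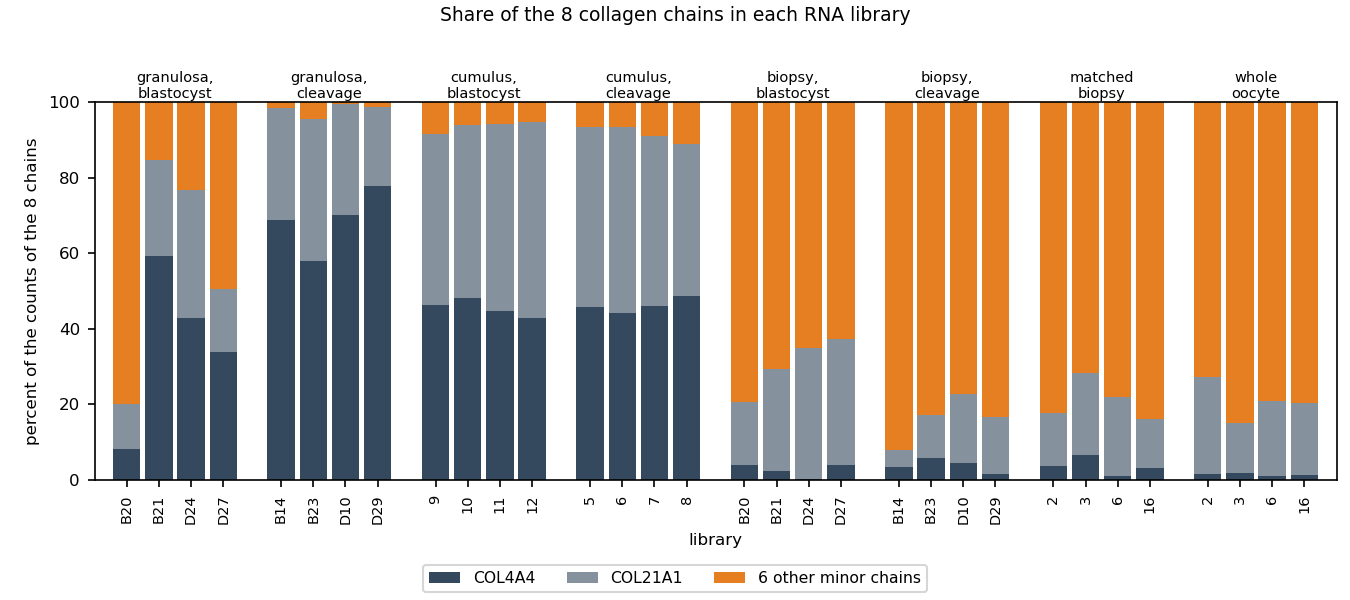
Percent of the counts of the 8 chains from COL4A4 (dark), COL21A1 (grey) and the 6 other minor chains (orange), stacked, in each of 32 libraries. Cumulus libraries are nearly alike, biopsies and oocytes are mostly orange, and granulosa libraries run from 8.3% to 77.7% COL4A4.

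Between matched biopsies and whole oocytes edgeR called no member (0 of 8, and 0% of 18540 rows, with 5.54% at an unadjusted p under 0.05, among them 0 members). DESeq2 called 0 members and 190 rows. COL24A1, the leading minor chain, stood at 82.9, 86, 81.7 and 114 CPM in biopsies 2, 3, 6 and 16 and at 60.9, 108, 119 and 73.6 in the oocytes of those numbers. The ranges overlapped (log2 0.01, SE 0.28, 95% interval -0.59 to 0.62). COL6A6 counts in biopsy and oocyte were 2 and 18 for number 2, 0 and 41 for number 3, 330 and 432 for number 6, and 293 and 181 for number 16. Numbers 6 and 16 were above numbers 2 and 3 in both kinds of sample. COL4A4 was higher in the biopsy in 3 of 4 pairs (5, 9.62, 1.42 and 5.25 against 1.78, 2.89, 2.1 and 1.63 CPM), with a log2 difference of 1.34 (SE 0.66, edgeR adjusted p = 0.887). COL22A1 was higher in the biopsy in 4 of 4 pairs, at 8.26, 8.42, 1.78 and 3.13 against 3.01, 5.06, 1.69 and 1.42 CPM, and the ranges overlapped (log2 0.95, SE 0.69, edgeR adjusted p = 0.943). The share of all rows with 4 of 4 pairs in the same direction was not counted. COL25A1 was higher in the biopsy for numbers 2 and 3 and in the oocyte for numbers 6 and 16, with 5 and 3 counts in those biopsies. COL19A1 stood at 12.6, 1.25, 0.914 and 0.112 CPM in the biopsies and 3.46, 8.78, 1.63 and 1.52 in the oocytes. Log2 differences of COL19A1, COL21A1, COL25A1, COL28A1 and COL6A6 lay between -0.20 and 0.06 in the unpaired fit. With the oocyte number as a replicate block they were -1.37 for COL19A1, -0.09 for COL21A1, -0.80 for COL25A1, -0.21 for COL28A1 and -1.47 for COL6A6 (edgeR adjusted p of 0.758 to 0.965). The fitted values of COL24A1, COL4A4 and COL22A1 given above are also from the unpaired fit. With the block they were 0.05, 1.13 and 0.86 (edgeR adjusted p = 0.979, 0.753 and 0.784). The 95% interval of COL6A6 in the unpaired fit was -3.09 to 2.70.

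Over the 32 RNA libraries, the symbol rows most like COL4A4 in log2(CPM + 1) were XIST, IER5, TMEM136 and MUM1L1, with Pearson correlations of 0.982, 0.972, 0.972 and 0.970 among 954 symbol rows. Those most like COL19A1 were PCDH9, CTXND1, ERICH6B and CNTN5 (0.929, 0.927, 0.925 and 0.920). For COL4A4 these values largely describe the gap between somatic libraries and biopsies or oocytes. COL19A1 ran from 0.302 CPM in cleavage granulosa D10 to 227 in blastocyst granulosa B20, so its values also follow differences among granulosa libraries. All are given without a test.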

How the data were processed

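Per the labels' protocols, polyA RNA was amplified with a SMART-Seq HT kit and libraries came from a Nextera XT kit. STAR, featureCounts, cutadapt and Trim Galore are named in the submitters' processing notes, with versions, build, strand and multimapping settings not given in the sources used here, so antisense or shared reads cannot be told apart. The authors deposited whole-number counts per row. COL6A6 was matched through a LOC identifier by RefSeq gene ID, and the other members by symbol. The 24 polar body columns carry numbers alone and were not used.

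Fits used the libraries of 1 comparison at a time: filterByExpr, TMM, edgeR 4.0.16 robust quasi-likelihood tests (R 4.3.3), with a Benjamini-Hochberg adjusted p under 0.05 called. DESeq2 1.42.0 was the alternative tool. Python 3.11.15 made the tables. Members and lists were chosen with earlier results of these data known. All 8 members are named in every comparison, and up to 4 rows past the threshold from each list. Chemosensory rows were taken by symbol. The CPM scale (within each table rather than over all) and the row filter of the blocked fits were changed after a first run had been seen, as was the alternative without granulosa B20 and D27 against cumulus cells. The fits were tested on simulated data with known answers. Every simulated row had the same spread and few rows were changed, so these checks do not cover the spread seen between granulosa libraries. A floor set for the share of altered rows recovered was not met by the interaction of granulosa cells and biopsies and was dropped after that was seen, leaving checks of bias and false calls, so a missed call in an interaction is not evidence of no difference. Granulosa and biopsy libraries are paired by their oocyte labels, although deviations of same-label pairs correlated at only -0.0259 to 0.114 (mean 0.0499). Different-label pairs correlated at -0.163 to 0.148 (mean -0.00703), a range that holds the same-label range. Same-number pairs of the matched set correlated at 0.173 to 0.293, and different-number pairs at -0.321 to 0.215. Cumulus columns carry fate and no title number, and cumulus titles name no oocyte label, so they could not be paired. Libraries within a group differed by more than counting noise (chi-square over its degrees of freedom at least 5.03).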

Additional observations from a re-analysis of the deposited data

Results flagged for a closer look

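The fate contrast differed between sample types for these chains. Against biopsies, the interaction was 4.30 for COL6A6, -2.10 for COL21A1, 4.39 for COL24A1, 4.08 for COL25A1 and 3.84 for COL28A1 on the log2 scale. Against cumulus cells it was 6.93 for COL6A6, 3.25 for COL22A1, 3.76 for COL24A1 and 4.95 for COL25A1. Each passed edgeR's quasi-likelihood test of the difference itself, and none did without granulosa B20 and D27. Without those libraries 45 of 30288 rows passed against biopsies and 393 of 22150 against cumulus cells.

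Of 72 sets of 4 values examined by Dixon's test for a library far from the other 3, 11 had such a library. In the cleavage granulosa cells it was B23 for COL19A1 (11.6 CPM) and COL25A1 (25 CPM). In biopsies it was cleavage B14 for COL6A6 (13.6 CPM), matched biopsy 2 for COL19A1 (12.6 CPM) and matched biopsy 16 for COL24A1 (114 CPM). Whole oocyte 6 stood out for COL25A1 (3.56 CPM). In cumulus cells it was blastocyst library 12 for COL22A1 (5.21 CPM) and library 9 for COL25A1 (28.3 CPM). The other 3 were single counts beside 0: COL6A6 and COL28A1 in blastocyst cumulus library 10 (0.12 CPM each) and COL28A1 in cleavage cumulus library 6 (0.115 CPM). A single count beside 0 is always flagged. The test's nominal rate assumes normally distributed values, and the sets are not independent, so an excess over chance was not shown.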

How the results depend on the processing

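For granulosa fate, 6 members were called with the DESeq2 Wald test, DESeq2 size factors, library totals, no low count filter and the label letter as a covariate. In that order, calls over all rows were 11431 of 35243, 5880 of 22934, 6851 of 22934, 7149 of 35243 and 5126 of 22934. The main fit called 4964 of 22934. Leaving out each library gave 3 to 6 members beside 2482 to 8131 rows. Leaving out B20 and D27 together gave 0 members and 0 of 23577 rows. The median of all rows in that comparison is given in the text for 3 scalings. The interaction with biopsies gave 5 calls, 2 with no low count filter, 1 to 7 without each library and 0 without B20 and D27 together. Calls over all rows there were 1948 of 28229, 1237 of 45487, 443 to 4955, and 45 of 30288. The interaction with cumulus cells gave 4, 0 to 6 without each library and 0 without B20 and D27. Calls over all rows there were 2244 of 21929, 685 to 5156, and 393 of 22150. Granulosa against cumulus cells gave 6 calls, beside 15946 of 21929 rows. In the cleavage libraries only it gave 2 of 5 members tested, beside 10307 of 16611 rows. The fate contrasts of biopsies and cumulus cells and the matched comparison stayed at 0 of the members under each alternative run.

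With the replicate block, calls of members were 4 in the interaction with biopsies, 3 in granulosa against biopsy and 0 in the matched comparison. Calls over all rows in these fits were 1401 of 28229, 15830 of 28229 and 0 of 18540. In the matched comparison with the block COL25A1 turned to -0.80 from 0.06. In granulosa against biopsy COL6A6 (-0.05) turned to 0.10 with the block, 0.18 with the DESeq2 Wald test and under DESeq2 size factors, and 0.60 under library totals, where COL22A1 turned to 0.18. In the blastocyst libraries only it was 1.60 for COL6A6, 0.58 for COL22A1 and 0.62 for COL28A1, and in the cleavage libraries only -0.32 for COL19A1 and -0.27 for COL25A1. In granulosa against cumulus COL21A1 was -0.16 in blastocyst libraries only and COL25A1 -2.23 in cleavage libraries only. In the matched comparison COL24A1 turned to -0.0035 with the DESeq2 Wald test, -0.0016 with DESeq2 size factors and -0.0109 with no filter, and library totals turned COL19A1 to 0.20 and COL21A1 to 0.0225.

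Leaving out each library turned the sign of uncalled members alone. In biopsy fate the ranges were -0.20 to 1.52 for COL6A6, -0.86 to 0.36 for COL22A1, -0.49 to 0.0307 for COL25A1 and -0.0056 to 0.75 for COL28A1. In cumulus fate they were -0.0698 to 0.16 for COL21A1, -0.85 to 0.0897 for COL22A1 and -0.0903 to 1e-04 for COL4A4. In the matched comparison they were -0.78 to 0.94 for COL6A6, -2.32 to 0.73 for COL19A1, -0.25 to 0.13 for COL21A1, -0.15 to 0.17 for COL24A1, -0.77 to 0.57 for COL25A1 and -0.48 to 0.0698 for COL28A1. The highest mean level fell in the same group for 7 of 8 members with library totals. The exception was COL24A1, highest in cleavage biopsies by TMM (100 CPM). With library totals it was highest in blastocyst granulosa cells (124 CPM, against 99 in cleavage biopsies). The weighting of COL4A4 shares by protein length was not run, since lengths were not used here. Depth limits COL6A6, COL19A1 and COL28A1 in cumulus cells. A library at 0, as found for COL6A6 and COL28A1, allows up to 3 counts. COL19A1 had 1 to 4 counts in each cumulus library.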
